A study of Mus musculus with 9 samples.

Results

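The genes described here are 9 markers and regulators of neural stem cells and of the glial lineages: Sox2, Sox9, Sox10, Olig1, Olig2, Nes, Prom1, Pax6 and Nkx2-2. They were chosen by name, as the rows of the deposited count table with these symbols, and each is 1 row of the 24421 rows. The table gives the reads counted on each gene in 9 libraries of mouse RNA, in 3 groups of 3. The control group is SB28 tumor cells from vehicle-treated C57BL/6 mice, and the BAL101553 group is SB28 tumor cells from C57BL/6 mice given BAL101553, an orally active prodrug that acts on microtubules. The comparison of the 2 groups asks how the drug changed tumor cells grown in the brain. SB28 cells are a GFP-bearing glioma line of the mouse, so both tumor groups stand for 1 cell line. The mice were 6 to 8 weeks old when implanted in the brain, and CD45-CD11b-GFP+ cells were sorted from dissociated brain. Harvest was at day 21 for control and at day 33 or day 35 for BAL101553, since both days are stated, so treatment and time of growth cannot be told apart. The sample labels call this material whole tissue. The third group is labelled astrocytes, strain C57BL/6 and treatment BAL101553, with no age, time or sort given in the sources used here. The study describes biological replicates, but fewer ex vivo samples per group than the libraries in the table, and its data statement names another deposit. Whether the libraries of 1 group all came from separate mice is not given in the sources used here, so p-values measure the spread between these libraries, which may be technical.

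Sox2 is a transcription factor that keeps neural stem cells undifferentiated, Nes encodes nestin, an intermediate filament of neural progenitors, and Prom1 encodes the surface protein CD133. Sox9 drives the switch of progenitors from neurons to glia and stays on in astrocytes, whereas Olig1, Olig2, Sox10 and Nkx2-2 act in the oligodendrocyte lineage, where Olig2 comes early and Sox10 turns on myelin genes. Pax6 patterns the forebrain and is kept in radial glia and some astrocytes. Gliomas often carry a mixture of these programs, and several of these genes are used as markers of glioma stem cells.

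Total counts ranged from 24540452 to 28761388 in the control libraries, from 26667789 to 34013875 in those of BAL101553 and from 22919523 to 29230743 in those labelled astrocytes. Levels are CPM, the reads of a gene relative to all reads of its library, scaled by the TMM method over the 9 libraries, and 3 reads, the limit used for detection, are worth 0.0884 to 0.135 CPM. Summed over 13 astrocyte genes, the libraries labelled astrocytes reached 19789 to 22983 CPM, but 6 myelin genes also summed to 10282 to 12723 CPM there, 8 ependymal and choroid plexus genes to 2323 to 4910 CPM and 12 microglial genes to 512 to 1116 CPM. Markers of several brain cell types were thus present beside those of astrocytes. In the 6 SB28 libraries the same sums were 789 to 1189, 15.3 to 20.6, 5.74 to 12.8 and 2.65 to 5.70 CPM. Most of the astrocyte sum in SB28 cells came from 1 gene, Gja1, at 650 to 928 CPM. Of the other abundant genes of that list, Glul was at 50.5 to 92.5 CPM there, Slc1a2 at 0.852 to 1.61 CPM and Slc1a3 at 0.583 to 2.96 CPM.

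In the mouse genome (GRCm38, gene models of GENCODE vM21), Sox2 is a single-exon gene at chr3:34650405-34652461 on the plus strand, inside the long noncoding RNA Sox2ot. Olig2 at chr16:91225457-91228677 and Olig1 at chr16:91269772-91271933 are neighbours on the plus strand, 41095 bases apart. Nes lies at chr3:87971078-87980451 (plus), Sox9 at chr11:112782224-112787760 (plus), Sox10 at chr15:79154908-79165240 (minus), Prom1 at chr5:43993620-44102032 (minus), Pax6 at chr2:105668900-105697364 (plus) and Nkx2-2 at chr2:147177546-147194243 (minus). Every stretch of 50 bases, the length of a read, in the transcripts of 7 of the 9 genes was absent from transcripts of other genes on the same strand. The exceptions were Prom1, with 0.344% of its stretches shared, and Pax6, with 0.426%. Of the stretches of Nkx2-2, 8.04% matched the opposite strand of Nkx2-2os, an antisense RNA. The share that matched the opposite strand of other genes was 5.11% for Olig1, 4.99% for Prom1 and 0.394% for Pax6. Whether the counting used strand is not given in the sources used here.

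The start regions of 3 of these genes are shown because their levels in SB28 cells lay far apart. Sox2 and Nes were abundant there, and Olig2 had at most 4 reads in a library. Each is the RefSeq promoter (GRCm38.p6, plus strand, 250 bases before to 50 bases after the start site), written 5′ to 3′ with every CG dinucleotide in capitals. The regions are chr3:34649745-34650044 for Sox2, which lies before the GENCODE start of the gene, chr3:87970843-87971142 for Nes and chr16:91225300-91225599 for Olig2.
Sox2: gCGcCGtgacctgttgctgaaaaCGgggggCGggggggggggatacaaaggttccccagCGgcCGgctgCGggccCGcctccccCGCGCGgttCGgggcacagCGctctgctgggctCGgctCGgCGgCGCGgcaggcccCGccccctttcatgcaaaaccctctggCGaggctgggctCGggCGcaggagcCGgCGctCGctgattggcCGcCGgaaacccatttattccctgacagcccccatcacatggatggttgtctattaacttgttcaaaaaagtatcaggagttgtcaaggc
Nes: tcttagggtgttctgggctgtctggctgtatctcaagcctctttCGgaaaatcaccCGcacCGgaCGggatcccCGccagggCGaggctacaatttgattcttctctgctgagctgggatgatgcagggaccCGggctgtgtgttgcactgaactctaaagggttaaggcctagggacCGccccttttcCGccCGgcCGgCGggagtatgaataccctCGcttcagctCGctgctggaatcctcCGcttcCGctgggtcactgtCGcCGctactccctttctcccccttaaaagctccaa
Olig2: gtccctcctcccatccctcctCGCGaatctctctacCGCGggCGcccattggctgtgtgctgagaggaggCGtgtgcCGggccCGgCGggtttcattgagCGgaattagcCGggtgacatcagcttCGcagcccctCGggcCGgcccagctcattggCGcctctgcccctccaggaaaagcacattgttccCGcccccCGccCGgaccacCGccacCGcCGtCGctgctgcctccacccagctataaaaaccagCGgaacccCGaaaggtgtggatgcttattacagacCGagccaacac
The Sox2 region holds 27 CG dinucleotides and 66.3% G and C, the Olig2 region 25 and 65.0%, and the Nes region 18 and 58.7%. Over 32851 mouse promoters of the same length the median was 7 CG dinucleotides and 52.7% G and C. Fewer CG dinucleotides than in Sox2 were found in 84.5% of promoters, than in Olig2 in 81.6% and than in Nes in 70.3%. The start regions of Sox2 and Olig2 were thus alike in CG content. A CG count describes the letters only, and methylation was not measured. RefSeq promoters of Prom1, Pax6 and Nkx2-2 were also matched, so 6 of the 9 genes had one, and those of Sox9, Sox10 and Olig1 were not used here.

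In SB28 cells, nestin RNA fell after BAL101553 by 1.07 on the log2 scale, to 0.476 of the control level, and Sox9 fell to 0.637 of it. Sox2 was at 0.630 of control with an adjusted p just above the threshold. Pax6, Prom1 and Nkx2-2 were present at low levels and did not pass the test, and the oligodendrocyte regulators Sox10, Olig1 and Olig2 had at most 8 reads in any library of both groups. Of the 12633 genes tested in this comparison, 14.7% were called at an adjusted p under 0.05 (quasi-likelihood test of edgeR, adjusted by Benjamini-Hochberg), with 6.09% lower and 8.64% higher. Scaled by library totals, 1456 of 1881 called genes were higher, beside 1091 of 1860 here. Without control library 3 the number of genes called dropped to 193, and 0 of the lineage genes were called. Of the 9 lineage genes, 6 passed the filter on low counts and were tested, and 2 of these, Nes and Sox9, were called, both lower. The median log2 fold change of the 6 was -0.56, and that of all genes tested was 0.02.

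**Figure D1:**
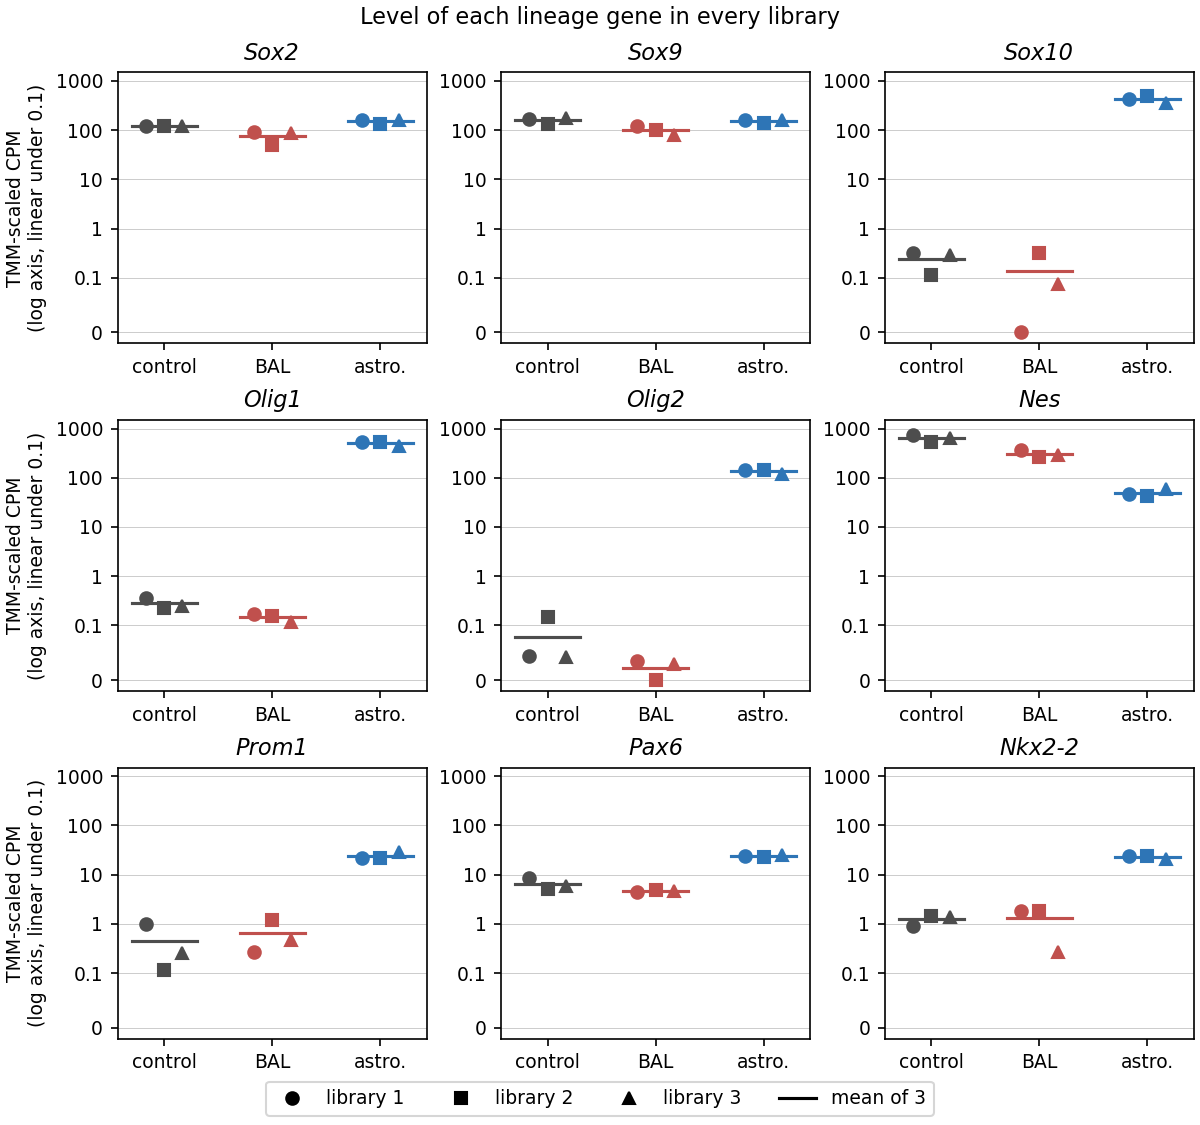
Level of each of the 9 genes (y axis, TMM-scaled CPM on a log axis that is linear under 0.1) in the 3 control, 3 BAL101553 (BAL) and 3 astrocyte-labelled (astro.) libraries, with 1 symbol for each library and a line at the mean of 3. Sox2 and Sox9 are abundant in all groups. Nes is abundant in the 6 SB28 libraries and lower, at 43.6 to 59.0 CPM, in those labelled astrocytes. Sox10, Olig1 and Olig2 are under 0.5 CPM in the 6 SB28 libraries and over 100 CPM in those labelled astrocytes.

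Among the stem cell genes, Nes was at 748, 532 and 657 CPM in control libraries 1, 2 and 3. In BAL101553 libraries 1, 2 and 3 it was at 361, 270 and 289 CPM. The highest BAL101553 library lay below the lowest control library. The means were 645 ± 109 CPM in control and 307 ± 48.0 CPM in BAL101553 (SD, n = 3 each), a log2 fold change of -1.07 with a standard error of 0.16 and an adjusted p of 0.0104. Only 1.48% of genes tested had a lower log2 fold change. The call was lost without control library 3, where the fold change was -1.06 and the adjusted p was 0.0513. In RNA from many cells, fewer cells with a transcript and less of it per cell cannot be told apart.

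Sox2 was at 120, 124 and 119 CPM in the control libraries, which lay within a narrow range. It was at 91.0, 50.9 and 86.0 CPM in BAL101553 libraries 1, 2 and 3, and library 2 was the lowest. The groups did not overlap, and the log2 fold change was -0.67 (SE 0.20, adjusted p = 0.0559, edgeR), so Sox2 was not called. The spread in the BAL101553 group came mostly from library 2. Without it the log2 fold change shrank to -0.45 and passed the test with an adjusted p of 0.0235. Sox2 was also called in 4 alternatives with all libraries kept, by DESeq2 (adjusted p = 0.00762), by the exact test (0.0121), with no filter on low counts (0.0432) and with all 9 libraries in 1 model (0.0288).

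Prom1, the CD133 gene, had few reads in SB28 cells. Its reads numbered 22, 3 and 6 in the control libraries and 8, 30 and 16 in the BAL101553 libraries, which is 0.114 to 0.987 CPM and 0.274 to 1.18 CPM. The groups overlapped, control 1 and BAL101553 2 were high, and the log2 fold change of 0.52 had a standard error of 0.81 (adjusted p = 0.682, edgeR). Its direction turned to -0.23 without BAL101553 library 2.

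Pax6 was at 8.39, 5.08 and 5.94 CPM in control and at 4.45, 4.81 and 4.71 CPM in BAL101553. Control library 1 was the highest, and the groups did not overlap. The log2 fold change was -0.47 (SE 0.23, adjusted p = 0.188, edgeR), with a 95% interval from -0.99 to 0.06. Thus 4 of the 6 genes tested, namely Nes, Sox2, Sox9 and Pax6, were lower in all BAL101553 libraries than in any control library, a pattern that 19.6% of all genes tested had (39.7% did not overlap in either direction).

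**Figure D2:**
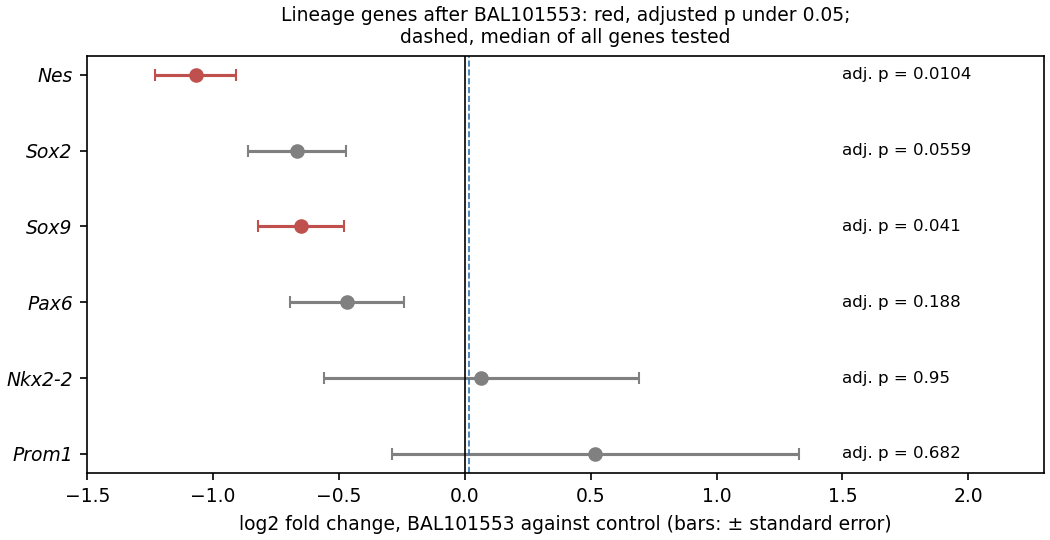
Log2 fold change of BAL101553 against control (x axis, bars ± standard error) for the 6 lineage genes that could be tested, with the adjusted p of edgeR beside each. Nes at -1.07 and Sox9 at -0.65, in red, passed the threshold of 0.05; the dashed line at 0.02 is the median of all genes tested.

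Among the glial genes, Sox9 was at 171, 135 and 172 CPM in the control libraries. It was at 122, 103 and 79.4 CPM in BAL101553 libraries 1, 2 and 3. All BAL101553 libraries were below all control libraries. The log2 fold change was -0.65 (SE 0.17, adjusted p = 0.0410, edgeR), a call close to the threshold. It was lost without control library 1 (adjusted p = 0.112), control library 3 (0.134), BAL101553 library 2 (0.0647) or BAL101553 library 3 (0.0890), with a log2 fold change between -0.80 and -0.50 over the 6 libraries left out in turn.

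Nkx2-2, a homeobox factor of the ventral neural tube and of oligodendrocyte maturation, was at 0.897, 1.48 and 1.35 CPM in control. It was at 1.85, 1.82 and 0.265 CPM in BAL101553, where library 3 had 9 reads and libraries 1 and 2 had 54 and 46. The groups overlapped, and the log2 fold change was 0.07 with a standard error of 0.62 (adjusted p = 0.95, edgeR). The 95% interval ran from -1.38 to 1.51, and the sign turned without control library 1, BAL101553 library 1 or BAL101553 library 2.

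The other oligodendrocyte regulators gave almost no reads in SB28 cells. Olig2 had 1, 4 and 1 reads in the control libraries and 1, 0 and 1 in the BAL101553 libraries. Olig1 had 8, 6 and 6 reads in control and 5, 4 and 4 in BAL101553. Sox10 had 7, 3 and 7 reads in control and 0, 8 and 3 in BAL101553. These 3 genes did not pass the filter on low counts, so no test of the drug was made. The ratio of BAL101553 to control over summed reads was 0.529 for Sox10 (exact 95% interval 0.224 to 1.20), 0.532 for Olig1 (0.243 to 1.12) and 0.273 for Olig2 (0.0269 to 1.53). The intervals cover counting error only and include no change, so a difference was not detectable at this depth.

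How the few reads of these regulators compare with those of brain transcripts can be read as a percent of the mean in the libraries labelled astrocytes. In control, Sox10 was at 0.0563%, Olig1 at 0.0560% and Olig2 at 0.0584%. In BAL101553 they were at 0.0315%, 0.0298% and 0.0156%. For Mbp, Mag and Cldn11, which encode proteins of myelin, the values were 0.0420%, 0.0475% and 0.0616% in control and 0.0321%, 0.0284% and 0.0256% in BAL101553. The regulators and these myelin genes thus stood at alike small percents, while Cnp, a myelin gene at 0.517% and 0.462%, stood higher. Prom1 (1.89% and 2.69%), Nkx2-2 (5.46% and 5.76%) and Pax6 (26.9% and 19.4%) were well above these values in control and BAL101553. Whether RNA of brain cells contributed to these reads was not tested.

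Genes of the same families and pathways were read from lists. The shares of all genes given beside the lists are those of edgeR. DESeq2 called more genes than edgeR over the whole table. The number that DESeq2 called among all genes tested is given in the last section and is the baseline for its counts. Counts by DESeq2 and the exact test were not read as an excess. Among 15 other SOX genes, 8 could be tested and 0 were called between BAL101553 and control by edgeR. At an unadjusted p under 0.05 the count was 2, where 34.1% of all genes tested passed, and DESeq2 called 2 and the exact test 1, with a median log2 fold change of -0.28. Sox4, the most abundant of them, was at 199, 178 and 188 CPM in control and 165, 149 and 138 CPM in BAL101553 (log2 fold change -0.31, SE 0.10, adjusted p = 0.0702).

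Of 31 neural stem and progenitor genes, 22 were tested, 2 rose and 1 fell, where 14.7% of all genes tested were called, and the median log2 fold change was 0.12. DESeq2, which called more genes than edgeR over the whole table, called 7 of them and the exact test 5. The gene that fell was Hmga2, a chromatin protein of fetal stem cells, from 2246, 1875 and 1982 CPM to 1299, 1003 and 935 CPM (log2 fold change -0.91, SE 0.15, adjusted p = 0.0125, edgeR). Nfib and Nfix, nuclear factors I of glial differentiation, rose by 0.75 (SE 0.13, adjusted p = 0.0141) and 0.66 (SE 0.13, adjusted p = 0.0199) on the log2 scale. Nfib was at 39.5, 51.8 and 37.6 CPM in control and 74.0, 69.2 and 73.2 CPM in BAL101553, with no overlap. Vim, the intermediate filament that pairs with nestin, was at 5248 to 5502 CPM in control and 4760 to 5835 CPM in BAL101553 and overlapped (log2 fold change -0.03, SE 0.11, adjusted p = 0.850). Cd44, a hyaluronan receptor of mesenchymal glioma cells, had a log2 fold change of 0.09 (SE 0.09, adjusted p = 0.516).

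Of 22 oligodendrocyte progenitor and lineage genes, 9 were tested, 2 rose and 0 fell, where 8.64% of all genes tested were higher and 6.09% lower, and the median log2 fold change was 0.58. DESeq2 called 4 of them and the exact test 3. Pdgfra, the receptor that drives the division of oligodendrocyte progenitors, was at 170, 201 and 127 CPM in control and 304, 322 and 335 CPM in BAL101553 (log2 fold change 0.95, SE 0.16, adjusted p = 0.0134, edgeR). Sulf2, a sulfatase that edits heparan sulfate, rose by 0.58 (SE 0.16, adjusted p = 0.0464). Vcan, a matrix proteoglycan, was at 648, 1125 and 800 CPM in control and 1183, 1147 and 1265 CPM in BAL101553 and was not called (log2 fold change 0.49, SE 0.18, adjusted p = 0.107). The called genes are a receptor and a sulfatase, and the regulators Olig1, Olig2 and Sox10 of the same lineage were near 0 in both groups. Of 6 myelin genes, 4 were tested and 0 were called by edgeR, 0 by DESeq2 and 1 by the exact test, with 1 at an unadjusted p under 0.05.

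Of 13 astrocyte genes, 8 were tested, and Gja1 (connexin 43) and Acsbg1 fell while Slc1a3, a glutamate transporter, rose, where 14.7% of all genes tested were called. DESeq2 and the exact test called 5 of the 8 each. Gja1 was at 918, 888 and 928 CPM in control and 746, 709 and 650 CPM in BAL101553 (log2 fold change -0.37, SE 0.09, adjusted p = 0.0363, edgeR). Slc1a3 was far lower, at 0.583 to 0.716 CPM in control and 1.30 to 2.96 CPM in BAL101553 (log2 fold change 1.57, SE 0.40, adjusted p = 0.0403). Acsbg1, named after its values were seen, had a log2 fold change of -0.93 (SE 0.20, adjusted p = 0.0266). Of 15 genes of the neuronal lineage, 6 were tested and edgeR called only Dlx1, a homeobox factor of inhibitory neurons, from 0.589 to 1.57 CPM in control to 3.71 to 7.06 CPM in BAL101553 (log2 fold change 2.13, SE 0.42, adjusted p = 0.0193). Of 8 ependymal and choroid genes 1 was tested and was not called by any of the 3 tools. Of 12 microglial genes 5 were tested and P2ry12 was lower, and of 10 endothelial and pericyte genes 8 were tested, of which Pdgfrb was higher and Rgs5 lower. DESeq2 and the exact test each called 2 neuronal, 1 microglial and 4 endothelial and pericyte genes. No list was tested as a whole.

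**Figure D3:**
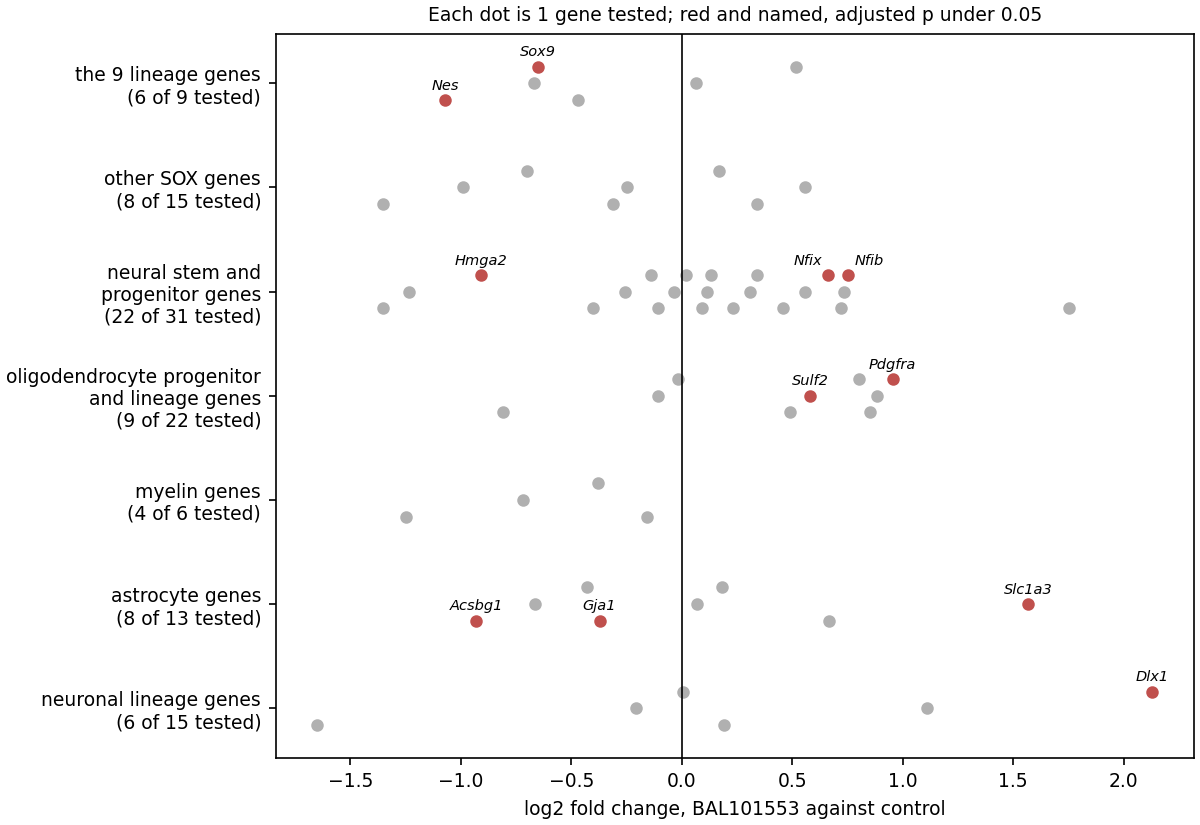
Log2 fold change of BAL101553 against control (x axis) for each gene that could be tested in 7 lists (y axis, number tested of number listed), 1 dot a gene; the vertical offset within a list only separates the dots. Called genes are red and named: Nes, Sox9, Hmga2, Gja1 and Acsbg1 lie left of 0, and Pdgfra, Sulf2, Nfib, Nfix, Slc1a3 and Dlx1 lie right of it.

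RNAs that overlap or neighbour these genes were called in 0 of 3 cases that could be tested between BAL101553 and control, by edgeR, DESeq2 or the exact test, and 0 had an unadjusted p under 0.05. Sox2ot, on the same strand as Sox2, was at 1.53, 3.52 and 3.07 CPM in control and 2.19, 0.750 and 1.33 CPM in BAL101553, with overlap (log2 fold change -0.92, SE 0.45, adjusted p = 0.192, edgeR). Polr2f, a polymerase subunit 3134 bases from Sox10, had a log2 fold change of -0.12 (SE 0.10, adjusted p = 0.432). Elp4, 3663 bases from Pax6, had one of -0.15 (SE 0.11, adjusted p = 0.386). Nkx2-2os and Pax6os1 were under 0.1 CPM in all 6 SB28 libraries.

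The libraries labelled astrocytes were compared with each SB28 group, and both comparisons share these 3 libraries. Against BAL101553, which has the same treatment label, all 9 genes passed the test, 8 higher and Nes lower, where 85.1% of 15314 genes tested were called, 46.3% higher and 38.9% lower. Against control, 7 were higher, Nes was lower and Sox9 did not pass, where 88.3% of 15207 genes were called, 48.8% higher and 39.5% lower. The groups did not overlap for 9 and 8 of the genes, beside 87.8% and 89.9% of all genes tested. Most genes differed in both comparisons, so the sizes are given with the calls. The median log2 fold change of all genes was 0.18 against BAL101553 and 0.25 against control, and it rose to 0.39 and 0.56 when libraries were scaled by their totals. Sox10, Olig1 and Olig2 passed the filter on low counts only through the libraries labelled astrocytes.

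Olig1 was at 524, 536 and 437 CPM, Sox10 at 438, 487 and 360 CPM and Olig2 at 142, 146 and 120 CPM in libraries 1, 2 and 3 labelled astrocytes. No SB28 library exceeded 0.359 CPM of any of them. By summed reads, Sox10 was 3464 times its level in BAL101553 (exact 95% interval of counting error 1936 to 6940) and 1834 times its level in control (1145 to 3148). Olig1 was 3417 times (1998 to 6418) and 1817 times (1176 to 2975) these levels. For Olig2 the ratio to BAL101553 rests on 2 reads and was 6059 with an interval from 1677 to 50034, and the ratio to control was 1652 (759 to 4503). Sox8, the close relative of Sox10, was at 155 to 190 CPM in the libraries labelled astrocytes and at 0 to 0.237 CPM in SB28 cells.

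Of the 22 oligodendrocyte progenitor and lineage genes, 20 were tested against each SB28 group. In both comparisons 14 were higher and 4 lower in the libraries labelled astrocytes. Only 9 of the list passed the filter on low counts within SB28 cells. The others tested passed only through the libraries labelled astrocytes, so the filter set their direction and it is not a result. Of those 9, Zfp488, Myrf and Bcas1 were higher than in BAL101553. Pdgfra, Cspg4, Vcan and Sulf2 were lower, and C1ql1 and Tcf7l2 were not called. Of all genes tested, 46.3% were higher and 38.9% lower against BAL101553, and 48.8% and 39.5% against control. Bcan was at 1475 to 1719 CPM, beside 0.197 to 0.505 CPM in SB28 cells. It passed the filter on low counts only through the libraries labelled astrocytes. Pdgfra and Vcan were lower there than in both SB28 groups, at 7.06 to 9.04 CPM and 10.6 to 15.0 CPM.

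Nkx2-2 was at 23.7, 23.9 and 20.6 CPM in the libraries labelled astrocytes. It was higher than in BAL101553 by 4.17 (SE 0.51, adjusted p = 9.83e-05, edgeR) and than in control by 4.19 (SE 0.19, adjusted p = 1.07e-07) on the log2 scale. Prom1 was at 21.8, 21.3 and 28.5 CPM, higher by 5.27 (SE 0.41) and 5.78 (SE 0.46). Pax6, at 23.8, 22.7 and 25.6 CPM, was higher by 2.38 (SE 0.12) and 1.90 (SE 0.19). All SB28 libraries lay below all libraries labelled astrocytes for these 3 genes.

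Sox2 and Sox9 differed less between brain and SB28 cells than the other 7 genes, with ratios of 1.996 and 1.52 to BAL101553 and of 1.25 and 0.960 to control. Sox2 was at 160, 133 and 158 CPM in the libraries labelled astrocytes, a log2 difference of 0.997 (SE 0.21, adjusted p = 0.00248, edgeR) from BAL101553 and of 0.32 (SE 0.09, adjusted p = 0.00700) from control. The latter was not called with all 9 libraries in 1 model (adjusted p = 0.0818). Sox9 was at 160, 139 and 159 CPM, a log2 difference of 0.61 (SE 0.15, adjusted p = 0.00559) from BAL101553. From control it differed by -0.06 (SE 0.11, adjusted p = 0.626), the groups overlapped, and with library totals the value was 0.25 beside a median of 0.56 over all genes. The 95% interval of the Sox9 difference from control ran from -0.32 to 0.20. Sox2ot, in contrast, was at 246, 265 and 227 CPM, higher than in BAL101553 by 7.43 (SE 0.30, adjusted p = 1.71e-07) and than in control by 6.49 (SE 0.23, adjusted p = 2.95e-08).

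Nes was at 47.3, 43.6 and 59.0 CPM in the libraries labelled astrocytes. The log2 difference was -2.60 (SE 0.16, adjusted p = 1.65e-06, edgeR) from BAL101553 and -3.69 (SE 0.17, adjusted p = 1.17e-07) from control. All libraries labelled astrocytes lay below all SB28 libraries. As a percent of its BAL101553 mean, Nes was at 14.2% to 19.2% in these libraries. Of the neural stem list, Hmga2 was at 0.0256% to 0.483%, Cd44 at 1.49% to 1.81%, Vim at 4.50% to 6.49% and Nfix at 216% to 241%. All 31 genes of that list were tested, some of which passed the filter only through the libraries labelled astrocytes. Against BAL101553, 19 were higher and 8 lower, where 46.3% of all genes were higher and 38.9% lower. Against control, 21 were higher and 8 lower, where 48.8% of all genes were higher and 39.5% lower. Hmga2 was at 0.276 to 5.21 CPM in the libraries labelled astrocytes, beside 935 to 2246 CPM in SB28 cells. Which cells the reads of Nes and Hmga2 in the libraries labelled astrocytes came from was not tested.

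Levels of different genes can be compared only per length, here as CPM per kilobase of exon. In control the order was Nes (101), Sox2 (58.8) and Sox9 (38.6), each with a range apart from the next, followed far below by Pax6 (0.553) and Nkx2-2 (0.432), whose ranges overlapped. Olig1 (0.129) came next, and Sox10 (0.0789), Prom1 (0.0629) and Olig2 (0.0314) overlapped with one another in sequence. The range of Prom1 (0.0158 to 0.138) also overlapped that of Olig1 (0.105 to 0.166). The order of these genes with few reads was thus not fully resolved. After BAL101553 the first 3 were the same, Nes (47.8), Sox2 (36.9) and Sox9 (24.5), but the ranges of Nes and Sox2 and of Sox2 and Sox9 overlapped. In the libraries labelled astrocytes the order was Olig1 (231), Sox10 (140), Sox2 (73.2), Olig2 (53.8) and Sox9 (36.9), each apart from the next. Nkx2-2 (7.91) and Nes (7.79) overlapped, and Prom1 (3.33) and Pax6 (2.05) came last. With the longest transcript in place of all exons, Prom1 was at 5.84 and Pax6 at 5.42 in these libraries. In control, Pax6 was then at 1.46 and Nkx2-2 at 0.585. In BAL101553, Pax6 was at 1.05 and Nkx2-2 at 0.617, so their order turned, and Prom1 was at 0.157.

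**Figure D4:**
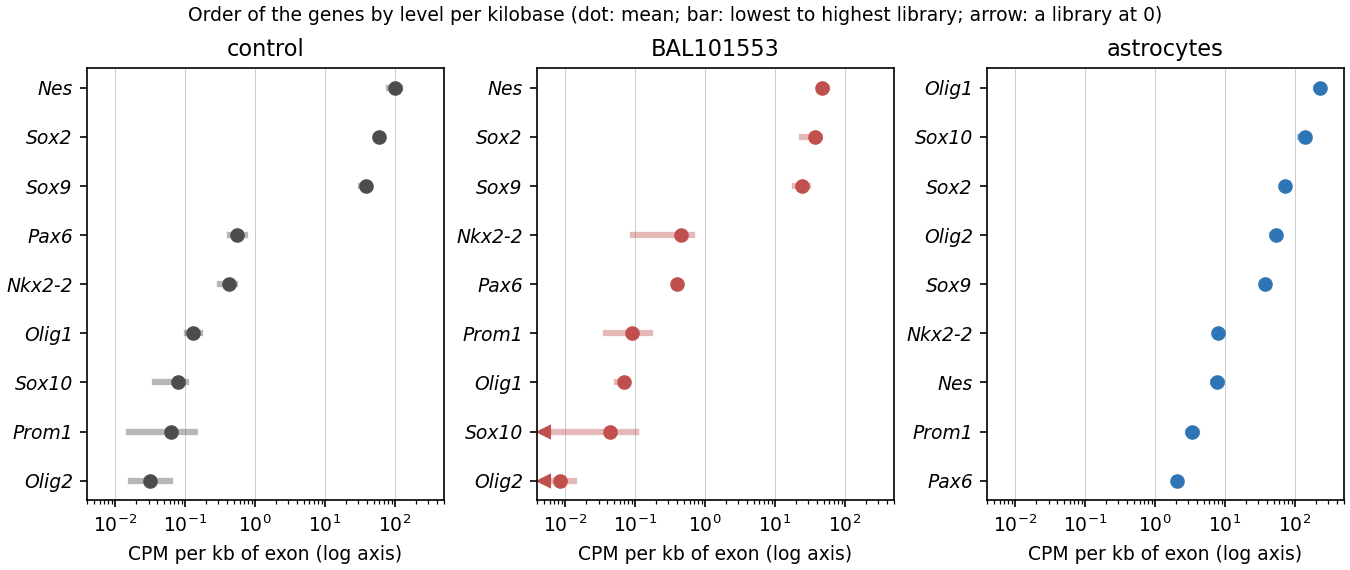
Order of the 9 genes in each group by CPM per kilobase of exon (x axis, log), with a dot at the mean of 3 libraries, a bar from the lowest to the highest library and an arrow where a library had 0 reads. Nes, Sox2 and Sox9 lead in both SB28 groups, and Olig1 and Sox10 lead in the libraries labelled astrocytes.

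The 3 libraries labelled astrocytes differed from each other, and marker sums are given beside the genes. As a percent of the mean of the 3, Sox10 was at 102, 114 and 84.0 in libraries 1, 2 and 3, Olig1 at 105, 107 and 87.6, Olig2 at 105, 107 and 88.1, and Nkx2-2 at 104, 105 and 90.5. The sum of the 6 myelin genes was at 104, 108 and 87.5. All of these were lowest in library 3. Sox2 (106, 88.5 and 105) and Sox9 (105, 91.2 and 104) were lowest in library 2, as was the sum of the 13 astrocyte genes (108, 93.0 and 98.9). Nes (94.7, 87.3 and 118), Prom1 (91.3, 89.2 and 119) and Pax6 (99.0, 94.4 and 107) were highest in library 3, where the sum of the 8 ependymal and choroid genes was also highest (69.2, 84.6 and 146). These 3 genes were lowest in library 2, as was the sum of 15 genes of the neuronal lineage (99.4, 95.5 and 105), whereas the ependymal and choroid sum was lowest in library 1. The sums of the oligodendrocyte progenitor and lineage list (108, 99.5 and 92.7), the neural stem list (108, 93.0 and 98.7), the microglial list (63.1, 138 and 99.2) and the endothelial and pericyte list (99.7, 99.6 and 101) were the others. With 3 libraries no test was made, and the part of cell composition in these values was not tested.

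**Figure D5:**
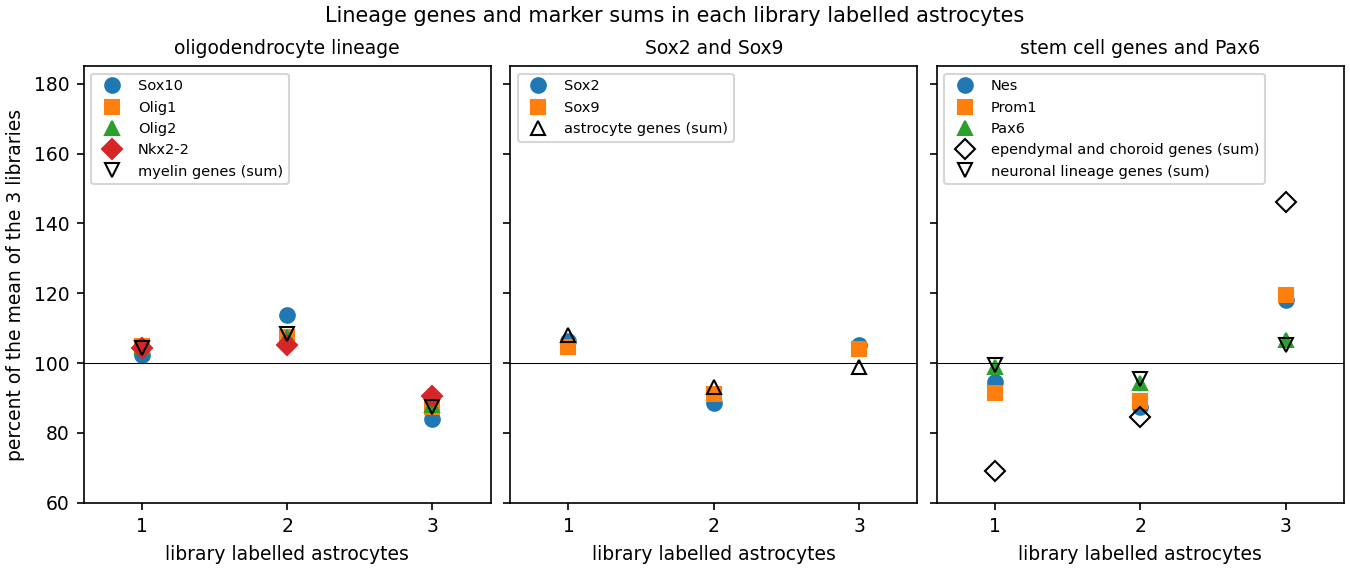
Each lineage gene (filled symbols) and marker sum (open symbols) in libraries 1, 2 and 3 labelled astrocytes (x axis), as a percent of its mean over the 3 libraries (y axis). Sox10, Olig1, Olig2 and Nkx2-2 are lowest in library 3 with the myelin sum, and Nes, Prom1 and Pax6 are highest there, as are the ependymal and choroid sum and the neuronal lineage sum.

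The genes with the most similar pattern were read from Pearson's r of log2 CPM, as a description. Over the 6 SB28 libraries, whose r also carries the difference between the groups, Nes was most like Rraga (r = 0.999), Sox2 like Smdt1 (r = 0.994), Sox9 like Pwp1 (r = 0.993), Pax6 like Cd38 (r = 0.998), Prom1 like Mtcl1 (r = 0.992) and Nkx2-2 like Polh (r = 0.985) among 12632 genes. Over all 9 libraries, where the step between brain cells and SB28 cells sets most of r, Olig1 was most like Glul and Nfasc (r = 0.9998 for both), and 1534 of 15407 genes had r over 0.99 with it. For Olig2 that number was 1353, for Sox10 442, for Nes 118, and for Sox2 and Sox9 it was 0.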

How the data were processed

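RNA of 9 mouse libraries was sequenced by the authors with a stranded protocol and 50-base reads, mapped with TopHat and counted with HTSeq 0.6.1 and featureCounts. The deposited values are whole-number counts per gene, without normalization. The submitters' notes name the build mm10. Which counter made the table, its strand setting and its gene annotation are not given in the sources used here. Date-like text stands in place of 27 gene names, whose rows stayed in all fits without being named.

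The analysis used edgeR 4.0.16 and DESeq2 1.42.0 under R 4.3.3. Genes were kept with filterByExpr on the 2 groups of each fit, and libraries were scaled by TMM. The two-sided quasi-likelihood test was adjusted by Benjamini-Hochberg across the whole table of tested genes, and 0.05 was the threshold. A standard error is the size of a log2 fold change over the root of its F value, and 95% intervals use the degrees of freedom of the test. Levels are CPM with TMM over 9 libraries, divided by the exon length of GENCODE vM21 for comparisons between genes. Intervals and the limit of 3 reads cover counting error only. Libraries of the same group differed by more than sampling noise (chi-square per degree of freedom 14.3 to 64.9), so none was merged. The test was also run on simulated counts, with fewer changed genes than were called in any comparison here. Its outcome is not given, and no call rests on it. Alternatives were other scalings, DESeq2, the exact test, no filter, all 9 libraries in 1 model, each library left out, control 3 and BAL101553 1 left out together, and the replicate number as a block.

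Samples were grouped by their titles. Members and gene lists were chosen with earlier results of these data known. The genes named are the 9 members, at most the 4 most abundant genes of each list, called genes of the neural stem and oligodendrocyte progenitor lists, RNAs that overlap or neighbour members, and for each member the genes with the most similar pattern, of which the first are given. P2ry12, Acsbg1, and in the oligodendrocyte progenitor list Zfp488, Bcas1, Cspg4, C1ql1 and Tcf7l2, were named after their values were seen.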

Additional observations from a re-analysis of the deposited data

How the results depend on the processing

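In the comparison of BAL101553 with control, 1860 genes and 2 of the lineage genes were called. DESeq2 called 2832 of the same 12633 genes tested, and the model with all 9 libraries called 3022 genes. With 1 library left out in turn, between 193 and 1712 genes and between 0 and 2 lineage genes were called; without control library 3 and BAL101553 library 1 together, 1 gene and 0 lineage genes were. Counts of genes differed by over 1.5 times without control 1 (458), control 3 (193), BAL101553 1 (1133) and BAL101553 3 (668). Fewer samples enter these fits; the cause of the differences between libraries was not tested. Nes was lower in all 14 alternatives and called in 12, Sox9 was lower in all 14 and called in 8, and Sox2 was lower in all 14 and called in 5. Nes also missed the threshold with both libraries left out (adjusted p = 0.0732), and Sox9 with both left out (0.123) and with the replicate block (0.0507). With 1 library left out, Prom1 lay between -0.23, reversed, without BAL101553 2 and 1.79 without control 1, and Nkx2-2 between -0.28 and 0.57. Nkx2-2 reversed to -0.28 without BAL101553 1, to -0.26 without BAL101553 2, to -0.12 without control 1 and to -0.22 with control 3 and BAL101553 1 left out.

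Deviations of libraries with the same number from their group means correlated at 0.00457 to 0.113 between BAL101553 and control and at most 0.0559 elsewhere. Between BAL101553 and control, libraries of different numbers correlated at -0.146 to 0.0518. With 3 libraries in each group, these values cannot decide whether a number stands for a shared batch or pairing. The sources used here do not give this. With the replicate number as a block, 1371 genes and 1 lineage gene, Nes, were called between BAL101553 and control, and Nkx2-2 reversed to -0.17; 12815 and 13357 genes were called in the comparisons with astrocytes.

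In the libraries labelled astrocytes against BAL101553, the 6 lineage genes other than Sox10, Olig1 and Olig2 were called in all 13 alternatives; those 3 passed the filter only through the libraries labelled astrocytes. Against control, 7 or 8 of the 9 were called, with the same limit. Sox9 against control, which was not called, reversed to 0.25 with library totals and to 0.0023 without astrocytes 2. Depth limits Sox10, Olig1 and Olig2 in SB28 cells, and Prom1 and Nkx2-2 in those SB28 libraries where they had under 10 reads.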
